A study of Mus musculus with 4 samples.

Results

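The genes described here build the primary cilium, the antenna-like organelle through which vertebrate cells receive the Hedgehog signal. They were chosen by name: every gene listed as Ift or Bbs with a number, plus 18 genes of the ciliary motors, the transition zone, the EvC complex and signal trafficking. Of the 17568 genes in the expression table, 39 met this rule, 13 by an Ift name, 8 by a Bbs name and 18 one by one. Transcripts came from forelimbs at E10.25 (31 to 34 somites) of Swiss Webster mouse embryos of wild type genotype, and were read on a SOLiD sequencer. After culture in medium with cyclopamine there were 2 libraries, and after culture in control medium 2 libraries, which the submitters call biological replicates. Cyclopamine, a plant alkaloid, blocks the membrane protein Smoothened, on which Hedgehog signalling depends. Neither the dose and vehicle, nor the culture time, nor how many limbs were pooled, is stated in the sources used here.

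Intraflagellar transport (IFT) carries cargo along the ciliary microtubules. Kinesin-2 moves trains outward with the IFT-B complex, and dynein-2 brings them back with the IFT-A complex. The BBSome moves membrane proteins out of the cilium, and the transition zone at its base acts as a gate. When a Hedgehog ligand binds, the receptor Ptch1 and the inhibitory receptor Gpr161 leave the cilium, Smoothened accumulates there with the EvC complex, and the Gli proteins are turned from repressors into activators. In mouse limbs, loss of many of these genes disturbs digit number, because Gli3 repressor is made at the cilium.

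Reads assigned to genes, as recovered from the deposited values, numbered 12962633 in cyclopamine 1, 12010965 in cyclopamine 2, 9779589 in control 1 and 13555492 in control 2. Levels are in CPM, normalised counts per 1000000 reads. All 7 limb mesenchyme markers were detected, with means from 12.7 CPM for Msx1 to 653 CPM for Prrx1, beside a median of 27.6 CPM over all genes tested. As a check of the treatment, the direct pathway targets Gli1 and Ptch1 both fell in cyclopamine. Gli1, a transcription factor gene induced by Hedgehog signalling, measured 8.05 and 4.70 CPM in cyclopamine, against 56.2 and 56.7 CPM in control (limma log2 fold change -3.10, SE 0.23, adjusted p = 4.32e-06). Ptch1 measured 51.3 and 32.2 CPM in cyclopamine and 116 and 107 CPM in control (-1.44, SE 0.19, limma adjusted p = 0.00216). Hhip, also a target, measured 5.05 and 3.403 CPM in cyclopamine and 8.46 and 9.70 CPM in control and did not pass (-1.04, SE 0.29, limma adjusted p = 0.289).

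The promoters of several of the cilium genes carry the X-box, the binding motif of RFX transcription factors, which are known regulators of ciliary genes. This motif is a feature that the choice by name did not use. It was searched in the 250 bases before and 50 bases after the gene start, on both strands, in RefSeq promoters of GRCm38.p6. Spelled as the arm GTNNCC followed, after 2 bases, by its reverse complement GGNNAC, it was found in 7 of the 35 members that had a promoter, or 20% of them, against 2.16% of 27025 genes and 2.66% of 10015 genes that were tested for expression. The matches are shown here in capitals, with up to 8 flanking bases on each side, on the strand of the gene.

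Bbs7: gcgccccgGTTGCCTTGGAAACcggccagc
Bbs4: ctcagctgGTCGCCCGGGAAACggtcggct
Bbs1: ctgagctgGTTGCCAAGGCGACgcctggga
Ift57: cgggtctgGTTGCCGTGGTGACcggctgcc
Mks1: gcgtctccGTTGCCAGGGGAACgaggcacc
Tctn1: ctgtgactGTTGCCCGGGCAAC
Tctn2: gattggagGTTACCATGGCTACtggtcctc

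These stretches lie at chr3:36613489-36613518 (Bbs7, minus strand), chr9:59353464-59353493 (Bbs4, minus), chr19:4906605-4906634 (Bbs1, minus), chr16:49699199-49699228 (Ift57, plus), chr11:87853183-87853212 (Mks1, plus), chr5:122264411-122264432 (Tctn1, minus) and chr5:124598679-124598708 (Tctn2, plus). The single arm GTTGCC, which can overlap the longer motif, occurred in 18 of the 35 members (51.4%), against 14.1% of all genes and 14.6% of tested genes. A match is a stretch of letters and not evidence of binding. The Gli-binding letters GACCACCCA were found in 0 of the 35 promoter windows and in 0.289% of all genes. A match this rare cannot set the members apart from other genes, and sites outside the windows were not searched. Ift81, Ift80, Ift122 and Tmem67 were not searched.

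All 39 genes were expressed in all 4 libraries, with means between 5.92 and 94.1 CPM and between 62 and 1331 reads per gene and library. In the comparison of cyclopamine with control, 0 of the 39 passed an adjusted p of 0.05 in limma, where 0.28% of the 13568 genes tested did. At an unadjusted p under 0.05 there was 1 member, Evc2, or 2.56%, against 5.82% of all genes tested. The edgeR quasi-likelihood test on recovered reads also called 0 members after adjustment (0.295% of all genes) and 1 before it (6.02%). DESeq2 called 0 after adjustment (0.383% of all genes) and 0 before it (3.85%). In the authors' deposited table, 0 of the 39 members had a false discovery rate under 0.05, against 0.455% of genes. In a whole forelimb, fewer cells of a type and less RNA per cell cannot be told apart.

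**Figure D1:**
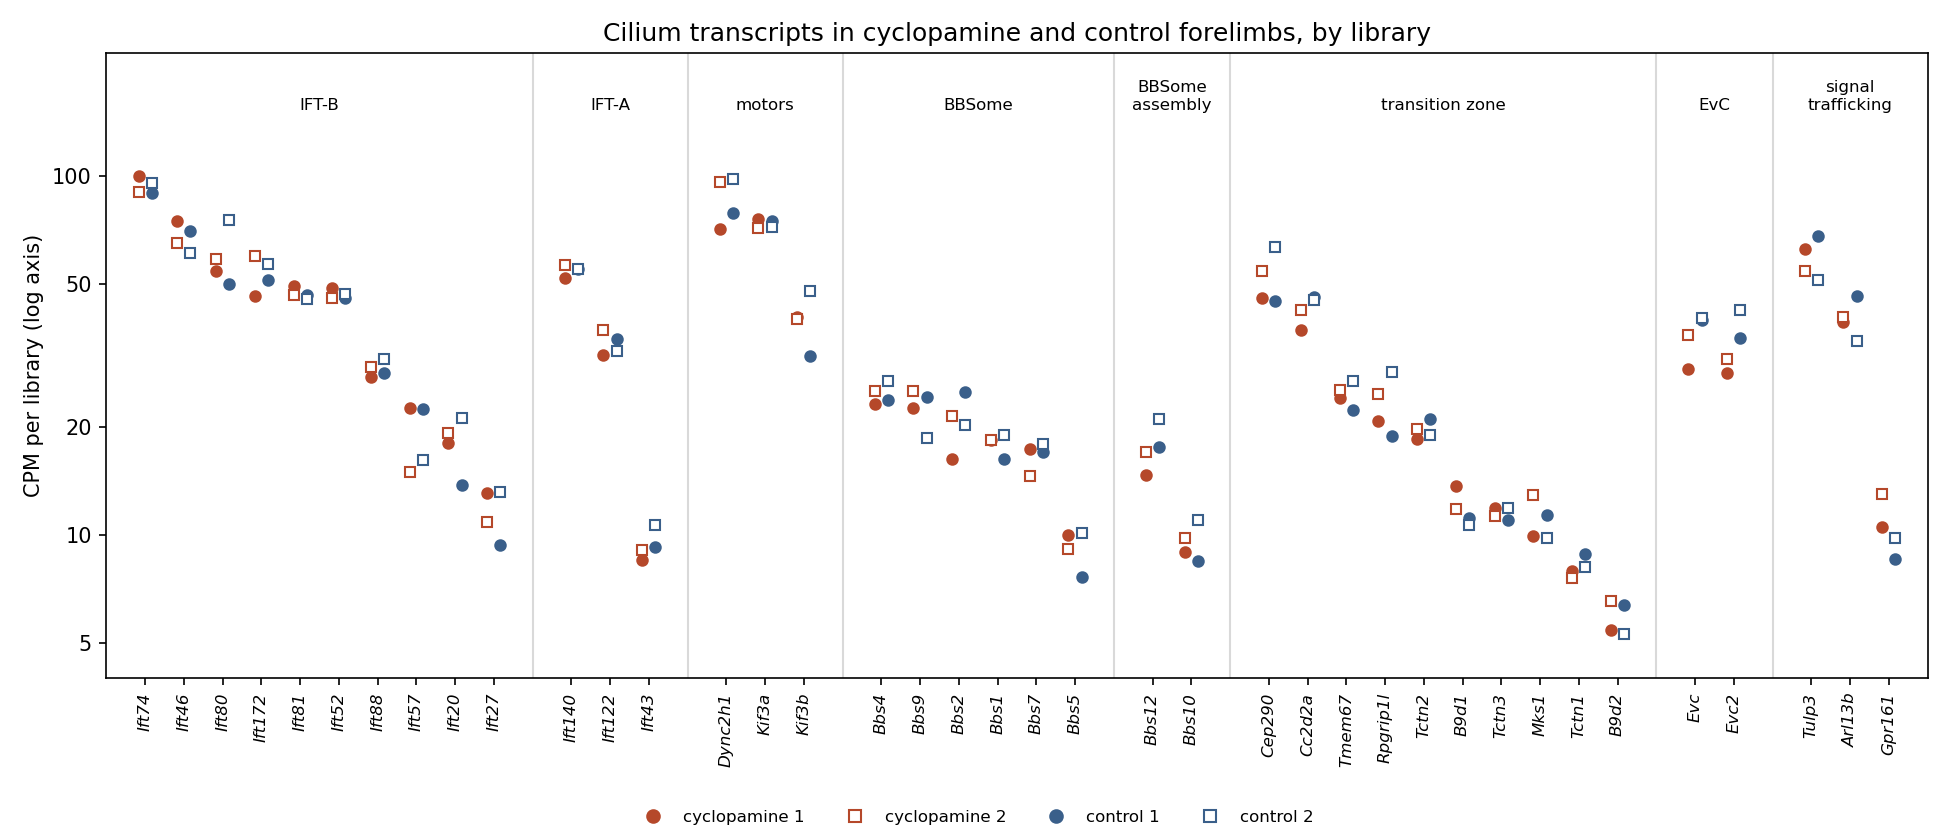
Each column is a cilium gene, grouped by role, and each point is its CPM in a single library on a log axis, with cyclopamine left of control. The points of a gene lie close together beside the wide range between genes, from about 5.92 CPM for B9d2 to 94.1 CPM for Ift74.

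The measured changes were small, and the width of their intervals shows what size could have been missed. Log2 fold changes ran from -0.39 for Evc2 to 0.34 for Gpr161, with SE between 0.148 and 0.281. Each SE and interval draws partly on the variance of other genes of like level, not on that gene's libraries alone. The median was -0.016, against 0.0046 over all genes tested. The 95% limma interval lay within a 2-fold change either way for 39 of 39 members, against 95.2% of genes that averaged 5 CPM or more. Within a 1.5-fold change it lay for 26 of 39 members (66.7%), against 63.5% of those genes. The interval of Gli1, from -3.59 to -2.60, and that of Ptch1, from -1.85 to -1.04, lay outside the 2-fold range on the low side. That of Hhip, from -1.65 to -0.43, crossed the 2-fold limit. Of the 39 members, 30 had a cyclopamine mean between 90% and 110% of the control mean, 6 lay lower and 3 higher.

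**Figure D2:**
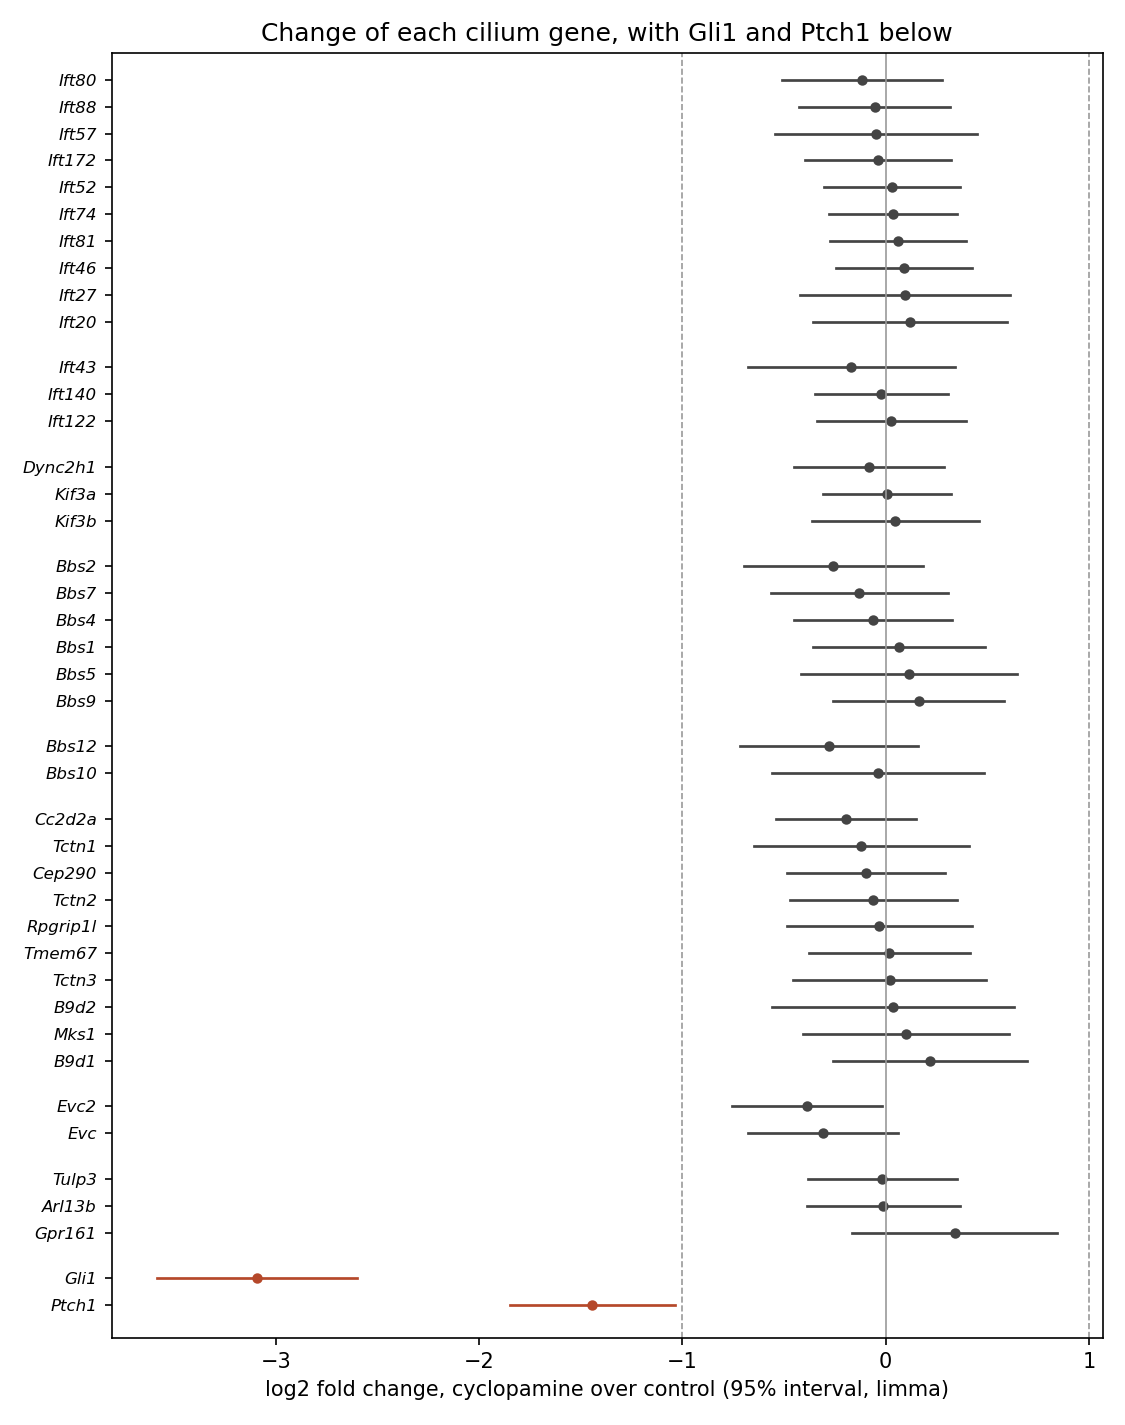
Points are log2 fold changes of cyclopamine over control and lines are 95% intervals from limma, with dashed lines at a 2-fold change in either direction. All 39 cilium genes have intervals inside the dashed lines, whereas those of Gli1 and Ptch1 lie beyond them.

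For most members, as for most genes, libraries of the same condition differed from each other by more than the group means did, and a difference between single libraries carries more noise than one between means. The 2 cyclopamine libraries differed by more than the groups for 27 of the 39 genes (69.2%, against 60.4% of all genes tested), and the 2 control libraries for 29 of them (74.4%, against 62.95%). The median absolute log2 difference was 0.152 between the cyclopamine libraries and 0.207 between the control libraries, while the median absolute log2 fold change was 0.063. Over all genes tested these medians were 0.201, 0.215 and 0.138. Summed over members, the level was 1232 and 1284 CPM in cyclopamine and 1252 and 1331 CPM in control. Control 2 was the highest library for 18 members and control 1 the lowest for 14. These 2 counts were not made over all genes, so whether they are particular to the members was not tested. Counting members whose libraries did not overlap between conditions, 3 were higher in cyclopamine (7.69%, against 16.8% of all genes tested) and 6 were lower (15.4%, against 15.8%).

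The IFT-B genes, which encode the outward-bound train, kept a summed level of 456 and 441 CPM in cyclopamine and 428 and 463 CPM in control. Of these 10 genes, 6 lay above and 4 below control, and 0 passed the test. Ift74, a core subunit that binds tubulin together with Ift81 in the human complex, was the most abundant member per length and measured 100 and 90.3 CPM in cyclopamine, against 89.8 and 95.9 CPM in control. Ift81 measured 49.5 and 46.6 CPM in cyclopamine and 46.5 and 45.5 CPM in control. Its groups did not overlap, but the cyclopamine mean was 104.5% of control. The log2 fold change of 0.062 was smaller than its limma SE of 0.157, which rests partly on other genes. On the same scale the cyclopamine libraries of Ift81 differed by 0.088 and its controls by 0.033. Ift88, the subunit whose hypomorphic mouse mutant is a classic model of short cilia, measured 27.6 and 29.4 CPM in cyclopamine, against 28.3 and 31.0 CPM in control. All its values fall within a narrow band with no order by treatment.

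Ift172, a subunit of the peripheral part of the complex that is needed for Hedgehog signalling in the mouse, measured 46.2 and 59.9 CPM in cyclopamine and 51.4 and 56.9 CPM in control. Ift80, another peripheral subunit, measured 54.3 and 58.7 CPM in cyclopamine, against 49.9 and 75.3 CPM in control. Control 2 stood above the other libraries there, and the log2 fold change of -0.12 (SE 0.19) was 0.18 without control 2. Ift57, also peripheral, split by replicate number, with 22.6 and 14.99 CPM in cyclopamine and 22.4 and 16.2 CPM in control. Ift20, which also works at the Golgi, measured 18.1 and 19.3 CPM in cyclopamine and 13.8 and 21.2 CPM in control. In Ift27, a small GTPase that helps the BBSome leave the cilium, the values were 13.1 and 10.9 CPM in cyclopamine and 9.39 and 13.2 CPM in control. The remaining subunits, Ift46 and Ift52, had log2 fold changes of 0.089 (SE 0.157) and 0.032 (SE 0.157).

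The IFT-A genes of the return train were 3, and 0 passed the test. Ift122, whose loss in the mouse raises Hedgehog signalling, measured 31.8 and 37.3 CPM in cyclopamine, against 35.1 and 32.5 CPM in control. Ift140 measured 51.9 and 56.6 CPM in cyclopamine and 55.0 and 55.1 CPM in control, a log2 fold change of -0.023 (SE 0.154). Ift43 measured 8.52 and 9.07 CPM in cyclopamine and 9.29 and 10.7 CPM in control. Its groups did not overlap, on 90 to 145 reads per library. The change, -0.17 on the log2 scale, was smaller than its limma SE of 0.24, which rests partly on other genes (limma adjusted p = 0.9996).

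Of the 3 motor genes 0 passed, and their 95% intervals lay between -0.45 and 0.46. Kif3a, a motor subunit of kinesin-2 whose loss disrupts Hedgehog signalling in the mouse, measured 75.7 and 71.9 CPM in cyclopamine, against 74.9 and 71.9 CPM in control. This is among the narrowest sets of values, with a log2 fold change of 0.0073 (SE 0.148) and an interval from -0.31 to 0.32. Kif3b, its partner, measured 40.5 and 39.9 CPM in cyclopamine and 31.6 and 47.8 CPM in control. The cyclopamine libraries lay between the controls, and the log2 fold change of 0.048 ran from -0.25 without control 1 to 0.34 without control 2. Dync2h1, the heavy chain of dynein-2, measured 71.3 and 96.4 CPM in cyclopamine and 78.8 and 97.8 CPM in control. Here the second library of each condition was the higher, and the fold change of -0.082 (SE 0.174) was smaller than that difference.

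Levels per length can be set beside each other, using exons of the coding transcripts in GENCODE vM21 for 38 of the 39 genes. Ift74 stood at 35.9 CPM per kb, followed by Kif3a at 22.8, Ift52 at 20.8, Ift46 at 16.0, Ift81 at 15.9 and Ift20 at 15.9. The lowest levels per kb were those of Tctn1 at 1.43, Gpr161 at 1.51, Bbs1 at 3.09 and Rpgrip1l at 3.31. In IFT-B the range was 7.16 to 35.9 CPM per kb, in the BBSome 3.09 to 9.83, and in the transition zone 1.43 to 14.5. Ift74 measured 36.4 CPM per kb in cyclopamine and 35.4 in control, and Tctn1 1.36 in cyclopamine and 1.49 in control. The lengths come from an annotation that need not be the one used for counting, so neighbours in this order cannot be ranked with confidence. They merge the exons of all of a gene's listed coding transcripts. Exons left out in these limbs would therefore lower a level per kb, also at the low end.

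**Figure D3:**
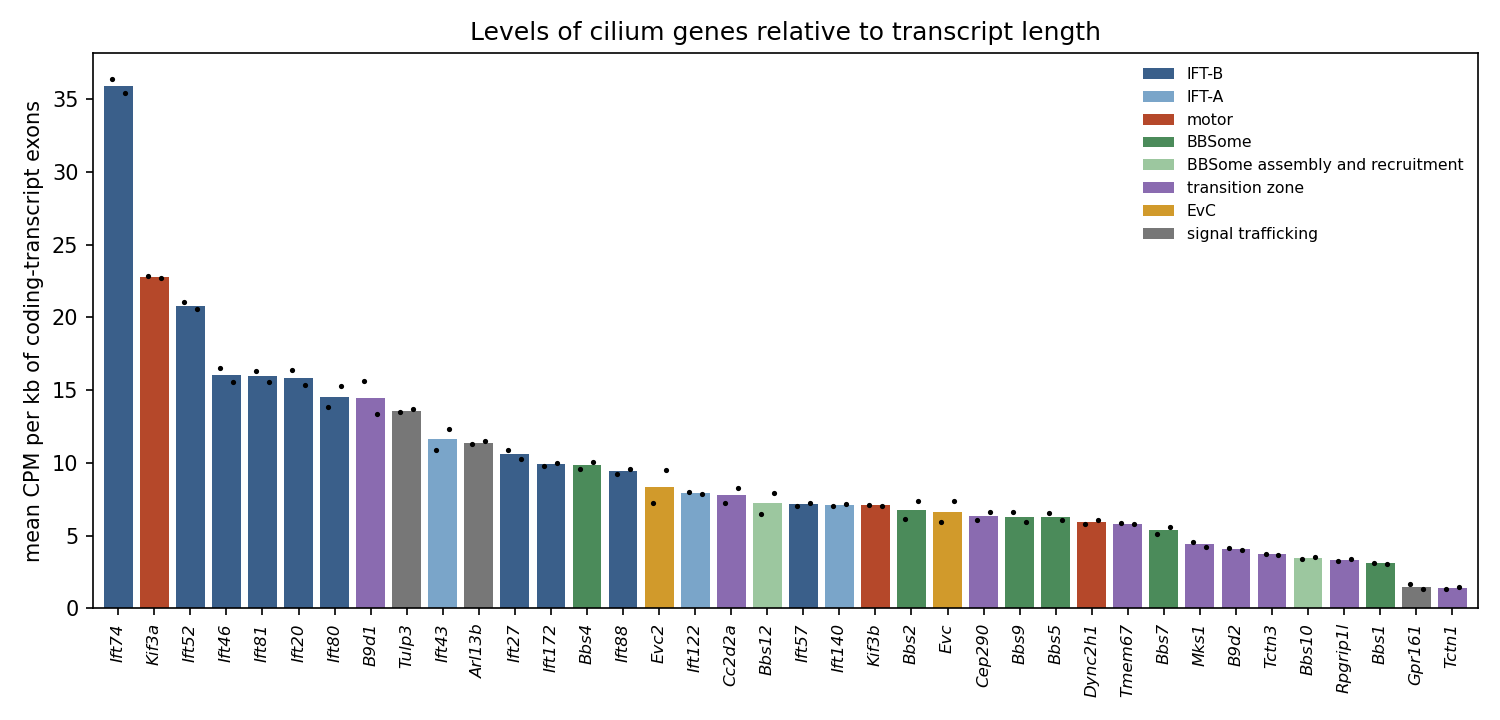
Bars are the mean CPM per kb of coding-transcript exons over all 4 libraries, coloured by role, and the paired dots are the group means with cyclopamine left of control. IFT-B genes and Kif3a fill the high end, led by Ift74 at 35.9, and Tctn1 and Gpr161 stand at the low end.

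The BBSome subunits numbered 6, with 3 above and 3 below control and 0 past the threshold. Bbs2 had the largest difference among them, with 16.3 and 21.5 CPM in cyclopamine and 25.0 and 20.3 CPM in control (log2 fold change -0.26, SE 0.21). Its groups overlapped, because cyclopamine 2 lay above control 2. Bbs9 leaned the other way, with 22.6 and 25.1 CPM in cyclopamine, against 24.2 and 18.6 CPM in control (0.16, SE 0.20). Bbs7 measured 17.4 and 14.6 CPM in cyclopamine and 17.02 and 17.9 CPM in control (-0.13, SE 0.20). Bbs4 measured 23.2 and 25.2 CPM in cyclopamine and 23.8 and 26.8 CPM in control, a spread that overlapped on both sides. Bbs1, the subunit that contacts membrane cargo, measured 18.5 and 18.4 CPM in cyclopamine and 16.3 and 19.03 CPM in control. Bbs5 had 10.02 and 9.16 CPM in cyclopamine and 7.63 and 10.1 CPM in control.

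Bbs10 and Bbs12 encode chaperonin-like proteins that assemble the BBSome. Bbs12 measured 14.7 and 17.02 CPM in cyclopamine and 17.6 and 21.1 CPM in control. The groups did not overlap, although cyclopamine 2 and control 1 were nearly equal, and the log2 fold change was -0.28 (SE 0.21, limma adjusted p = 0.998). Bbs10 measured 8.99 and 9.80 CPM in cyclopamine and 8.46 and 11.02 CPM in control, with cyclopamine between the controls.

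Of the 10 transition zone genes, 5 lay above and 5 below control and 0 passed. Cc2d2a, a component of the gate, measured 37.3 and 42.4 CPM in cyclopamine, against 46.0 and 45.1 CPM in control (log2 fold change -0.19, SE 0.16, limma adjusted p = 0.9996). Both cyclopamine values were below both controls, by a margin smaller than the gap within cyclopamine. B9d1, a B9-domain gate protein, lay on the other side with 13.7 and 11.8 CPM in cyclopamine and 11.1 and 10.7 CPM in control (0.22, SE 0.22). Its partners B9d2 and Mks1 had log2 fold changes of 0.036 (SE 0.281) and 0.099 (SE 0.238), and B9d2 was the least abundant member, at 62 to 81 reads per library.

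Cep290, shown in Chlamydomonas to link the ciliary membrane to the microtubules, measured 45.7 and 54.4 CPM in cyclopamine and 44.9 and 63.5 CPM in control. Rpgrip1l, a scaffold of the gate, measured 20.7 and 24.8 CPM in cyclopamine and 18.9 and 28.4 CPM in control. For both genes the cyclopamine libraries lay between the controls. The tectonic genes Tctn1, Tctn2 and Tctn3 had log2 fold changes of -0.12 (SE 0.25), -0.062 (SE 0.193) and 0.019 (SE 0.224). For Tctn1, the least abundant per length, 25.5% of its annotated exon bases overlap genes on the opposite strand, and the handling of strand in counting is not stated in the sources used here. Tmem67, a membrane protein of the gate, measured 24.1 and 25.4 CPM in cyclopamine and 22.3 and 26.8 CPM in control.

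The EvC genes were the pair with the lowest fold changes of all members. Evc and Evc2 encode the partner proteins that bind Smoothened in a zone near the base of the cilium. Evc2 measured 28.2 and 30.9 CPM in cyclopamine, against 35.4 and 42.5 CPM in control, or 358 and 381 reads against 343 and 578 reads. Both cyclopamine libraries lay below both controls, at 75.9% of the control mean. The log2 fold change was -0.39 (SE 0.17, 95% interval -0.76 to -0.017, unadjusted p = 0.0417 in limma), and after adjustment over all genes the limma p was 0.83. Evc measured 29.0 and 36.0 CPM in cyclopamine and 39.8 and 40.3 CPM in control, 81.1% of the control mean. Its groups did not overlap either (-0.31, SE 0.17, limma adjusted p = 0.946), and the fold change was -0.15 without cyclopamine 1 and -0.46 without cyclopamine 2. In the authors' deposited table the log2 fold changes were -0.40 for Evc2 and -0.30 for Evc, with false discovery rates of 0.902 and 1.

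The pair are neighbours on chromosome 5 in mm10, Evc at 37289098 to 37336894 on the minus strand and Evc2 at 37338499 to 37425055 on the plus strand. They are transcribed away from each other, with 1605 bases between their annotated starts, and neither has exons that overlap another gene. Per kb of exon, Evc2 stood at 7.22 CPM in cyclopamine and 9.51 in control, and Evc at 5.96 in cyclopamine and 7.35 in control. The neural marker list, another measure that was lower in cyclopamine, summed to 68.6 and 59.5 CPM in cyclopamine and 104.9 and 113 CPM in control over 9 genes. Most of that sum was Dcx, which did not pass (-0.23, SE 0.17, limma adjusted p = 0.997), and the other 8 genes summed to 10.1 and 11.6 CPM in cyclopamine and 36.9 and 56.7 CPM in control. Of its 6 tested genes 4 fell (limma adjusted p under the threshold, 66.7%), where 0.28% of all genes tested passed in either direction. Ina was at 0 reads in both cyclopamine libraries. The part of the neural list in the EvC values was not tested.

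The EvC complex is held in place by Iqce and Efcab7, which belong to the list of other cilium genes. Iqce measured 25.9 and 32.0 CPM in cyclopamine and 37.6 and 37.8 CPM in control (-0.38, SE 0.18, limma adjusted p = 0.836), without overlap and with the same library, cyclopamine 1, lowest as for Evc. Efcab7, shown because it is the partner anchor and chosen after its values were seen, measured 17.99 and 15.7 CPM in cyclopamine and 16.5 and 13.7 CPM in control (0.15, SE 0.21). Between the cyclopamine libraries, Evc, Evc2 and Iqce were lower in cyclopamine 1, whereas Gli1 and Ptch1 were lower in cyclopamine 2. That order was not particular to the EvC genes, since Ift172 and Dync2h1 shared it, while Ift74 and Ift46 had the reverse. Over all 4 libraries, 13 of the 39 members, Evc and Evc2 included, had their lowest value in cyclopamine 1. For 4 it was in cyclopamine 2, for 14 in control 1 and for 8 in control 2. These counts do not compare the cyclopamine libraries alone, and were not made over all genes.

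**Figure D4:**
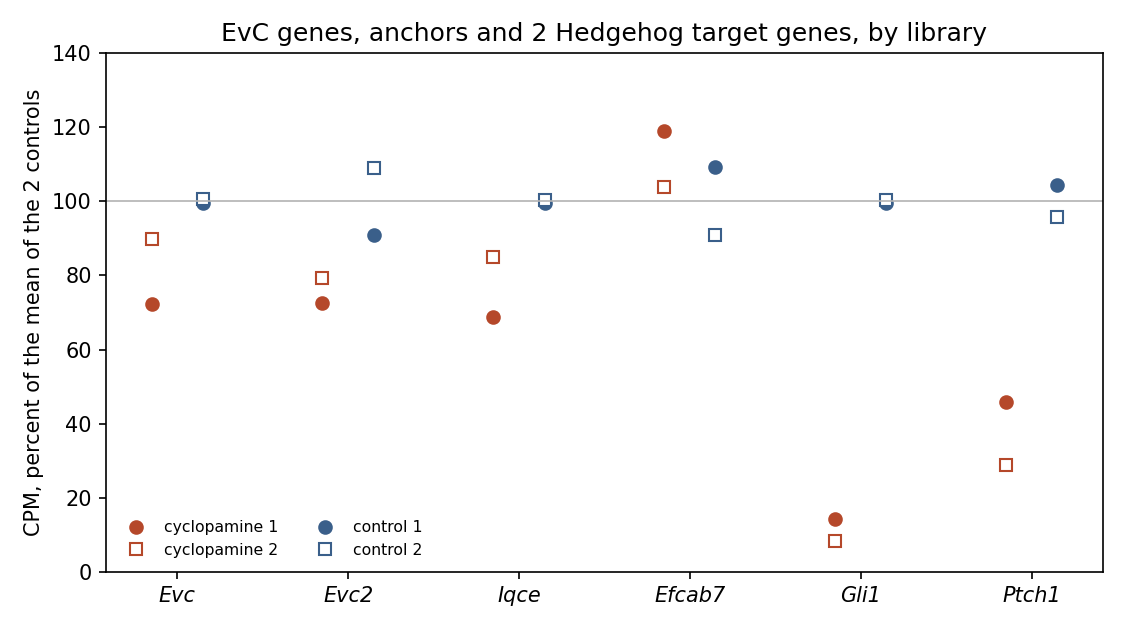
CPM of each library as a percentage of the mean of both controls, for the EvC genes, their anchors and a pair of Hedgehog target genes, with cyclopamine left of control. Evc, Evc2 and Iqce lie below both controls in both cyclopamine libraries, with means of 81.1%, 75.9% and 76.8%, while Efcab7 overlaps and Gli1 averages 11.3%.

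Genes of signal trafficking showed 1 upward lean. Gpr161, a receptor that keeps protein kinase A active and the pathway off, measured 10.6 and 13.04 CPM in cyclopamine and 8.56 and 9.84 CPM in control. Both cyclopamine libraries exceeded both controls, at 128% of the control mean, but on 83 to 161 reads the log2 fold change of 0.34 (SE 0.24, 95% interval -0.17 to 0.85) did not pass (limma adjusted p = 0.994). Tulp3, the adaptor that brings Gpr161 into the cilium with IFT-A, measured 62.6 and 54.3 CPM in cyclopamine, against 67.9 and 51.2 CPM in control. Arl13b, a small GTPase of the ciliary membrane needed for normal Hedgehog output, measured 39.1 and 40.5 CPM in cyclopamine and 46.4 and 34.7 CPM in control. For Tulp3 and Arl13b the cyclopamine values lay between the controls, and the log2 fold changes were -0.016 (SE 0.172) and -0.013 (SE 0.177).

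The 7 members with both arms of the X-box had log2 fold changes between -0.13 for Bbs7 and 0.099 for Mks1, with 2 above and 5 below control. Among the RFX genes, 6 of 7 were abundant enough to test and 0 passed in limma, where 0.28% of all genes tested did. At an unadjusted limma p under 0.05 there was 1, Rfx4 (16.7%, against 5.82% of all genes tested). Rfx3, known for its role in ciliogenesis, measured 73.8 and 91.8 CPM in cyclopamine and 83.4 and 106 CPM in control. Rfx4 was the exception in size, at 0.158 and 0.162 CPM, or 2 reads per library, in cyclopamine and 1.55 and 6.17 CPM in control. It did not pass in limma (log2 fold change -2.49, SE 0.54, adjusted p = 0.0877). In the authors' deposited table, however, it had a log2 fold change of -4.52 and a false discovery rate of 0.000237. The limma value is on log2(CPM + 0.5), and 0.5 CPM exceeds both cyclopamine values of Rfx4. The neural markers without Dcx, at 10.1 and 11.6 CPM in cyclopamine and 36.9 and 56.7 CPM in control, were lower in the same libraries, and their part in the Rfx4 values was not tested.

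Beyond the members, 54 other cilium genes were listed and 52 tested, with 0 past the threshold in limma, 3 at an unadjusted p under 0.05 (5.77%, against 5.82% of all genes tested), 21 above and 31 below control, and a median of -0.062. Their groups did not overlap for 13 genes in the lower direction (25%, against 15.8% of all genes tested) and 4 in the higher (7.69%, against 16.8%). Those with the smallest p, beside Iqce, were Tmem231 (-0.46, SE 0.21), Tmem138 (-0.44, SE 0.20) and Sclt1 (-0.33, SE 0.17). Tmem231, of the transition zone, measured 32.6 and 25.2 CPM in cyclopamine and 48.9 and 32.1 CPM in control, and its groups overlapped. Tmem138 measured 13.6 and 12.9 CPM in cyclopamine and 17.8 and 18.5 CPM in control, and Sclt1, of the distal appendages that anchor the basal body, 38.7 and 33.1 CPM in cyclopamine and 45.2 and 44.9 CPM in control. Neither of these overlapped, and neither passed (limma adjusted p of 0.849 and 0.881).

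Hedgehog signal carriers and co-receptors were tested for 11 genes, and 0 passed in limma (0.28% of all genes tested did). At an unadjusted limma p under 0.05 there was 1 (9.09%, against 5.82%). That gene was Gas1, a co-receptor, at 151 and 159 CPM in cyclopamine and 116 and 123 CPM in control (0.37, SE 0.15, limma adjusted p = 0.683). Markers of motile, multiciliated cells were scarce, since 8 of 10 averaged under 1 CPM. Their defining factor Foxj1 was at 0.868 and 0.891 CPM in cyclopamine and 1.13 and 0.588 CPM in control. The list summed to 20.6 and 22.0 CPM in cyclopamine and 22.3 and 22.0 CPM in control, of which Ccdc40 averaged 13.1 CPM.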

How the data were processed

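The submitters' processing notes name mm10, edgeR 3.4.2, HTSeq 0.5.4p5, SAMtools, Bowtie and TopHat2 2.0.9, without roles. The authors deposited a normalised signal per gene, scaled to counts per 1000000 of an effective library size. A deposited value was a whole multiple of a single read's worth in 100% of cases (tolerance 0.01 reads), so reads were recovered. The authors' deposited table gives log2 fold changes, p-values and false discovery rates, test not stated.

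Genes averaging 1 CPM or more were compared with limma 3.58.1 (R 4.3.3) on log2(CPM + 0.5), intensity trend, two-sided, Benjamini-Hochberg over 13568 genes, threshold 0.05. Fold changes are on that scale. This form was fixed for normalised values. Alternatives used edgeR 4.0.16, DESeq2 1.42.0, other scalings, pseudocounts, filters and variance models, a replicate block and leaving out each library. The code was tested on simulated data. SE, intervals and p-values from limma rest on the spread between these libraries, moderated toward a trend over all genes. The lowest SE of any gene tested was 0.144. Nothing says which embryos each library holds. Reads carry no molecular identifiers, so read counts are not counts of molecules.

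The members and lists were chosen with earlier results of these data known. Full values were set by rule for genes past the threshold, the EvC, trafficking and motor genes, 8 further members of smallest p, the highest and lowest per kb in each role, 4 other cilium genes of smallest p, Gli1 and Ptch1. Other genes named were chosen after their values were seen. Older symbols were matched through RefSeq synonyms. Exons of 7 members overlap another gene's. Some results on listed genes are not reported here.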

Additional observations from a re-analysis of the deposited data

How the results depend on the processing

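Among the 39 cilium genes, 0 passed the threshold in limma and in each of the 14 alternatives, edgeR and DESeq2 included. The same held for the other cilium genes, of which 52 were tested, or 50 with the filter at a mean of at least 5 CPM. Over all genes the count of 38 was 20 with plain library totals, 2 without the filter on low values, 0 without the intensity trend (837 before adjustment), and 43 to 122 when a library was left out. With a replicate block it was 351, of which 0 were members. Replicate numbers share no litter or day in the labels. Deviations of same-numbered libraries correlated at 0.274 over genes, which 2 pairs cannot establish as pairing. The causes were not tested. The median of the members ran from -0.084 to 0.011 when a library was left out.

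Log2 fold changes of 13 of the 23 members named by rule changed sign when a library was left out, and 0 of them was a called change. Their ranges were -0.30 to 0.13 for Dync2h1, -0.030 to 0.045 for Kif3a, -0.25 to 0.34 for Kif3b, -0.22 to 0.19 for Arl13b and -0.22 to 0.19 for Tulp3. They were -0.026 to 0.35 for Bbs9, -0.41 to 0.18 for Ift80, -0.039 to 0.11 for Ift74, -0.34 to 0.24 for Ift57 and -0.084 to 0.039 for Ift140. For Bbs4 the range was -0.15 to 0.020, for Bbs1 -0.045 to 0.17 and for Bbs10 -0.22 to 0.14. The other 10 kept their sign in every alternative, among them Evc2 (-0.52 to -0.26), Evc (-0.46 to -0.15) and Gpr161 (0.19 to 0.48). Without the intensity trend Gli1 was no longer called at the same fold change of -3.10 (limma adjusted p = 0.0732). Ptch1, at the same -1.44, was not called without the trend (limma adjusted p = 0.31) or without the filter (0.199). Depth limits the least-read members most, such as B9d2 at 62 to 81 reads per library.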
